A study of Mus musculus with 12 samples.

Results

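The genes described here are 10 parts and direct outputs of growth hormone signalling in the liver: Ghr, Jak2, Stat5a, Stat5b, Socs2, Cish, Bcl6, Cux2, Igf1 and Igfals. They were chosen by name and not by a cut on their values, but with earlier results of these data known. The source was a table of RNA-seq read counts for 36528 numeric mouse gene IDs, and all 10 were found. All 10 also passed a filter on low counts, as did 16032 genes in all. Each count column was the whole liver of 1 mouse: 6 animals were given carbon tetrachloride (CCl4), which cytochrome P450 of hepatocytes makes into a damaging radical, and 6 were given oil alone. Injections went into the peritoneum, 3 a week over 6 weeks. The labels state no dose, strain, age or sex. The Y-linked gene Ddx3y was at 34.6 to 92.3 CPM in CCl4 livers and 49.97 to 121 CPM in oil livers, and Xist, the transcript of the inactive X chromosome, at no more than 0.11 CPM in CCl4 livers and 0.22 CPM in oil livers. CPM are a gene's counts per 1000000 counts of its library, after TMM scaling for differences in library composition. Alb, which encodes serum albumin and marks hepatocytes, was at 54418 to 97692 CPM in CCl4 livers and 67258 to 98242 CPM in oil livers.

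Growth hormone from the pituitary reaches hepatocytes, binds its receptor (Ghr) and activates the kinase JAK2, which phosphorylates STAT5A and STAT5B. Phosphorylated STAT5 enters the nucleus and switches on Igf1, Igfals and the feedback inhibitors Socs2 and Cish. In male rodents growth hormone is released in pulses and liver STAT5 is activated in step with them; in females release is more continuous. BCL6 is a repressor that competes with STAT5 for shared binding sites, and CUX2 is a homeobox factor found mainly in female mouse liver.

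The receptor, both STAT5 genes, Igf1 and Igfals were lower in CCl4 livers, and none of the 10 genes was called higher. Ghr was 2.36-fold lower, Igfals 2.15-fold, Stat5b 2.12-fold, Stat5a 1.83-fold and Igf1 1.37-fold. The other members, Jak2, Socs2, Cish, Bcl6 and Cux2, did not pass an adjusted p of 0.05 with edgeR's quasi-likelihood test. Thus 5 of 10 members were called lower, where 18.4% of all 16032 tested genes were called lower, 20.6% higher and 39% in either direction. The median log2 fold change of the 10 members was -0.84, and that of all tested genes was 0.01. All 6 CCl4 livers lay below all 6 oil livers for 3 of the 10 members, against 8.03% of tested genes. In whole liver, fewer cells of a type and less RNA per cell cannot be told apart.

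**Figure D1:**
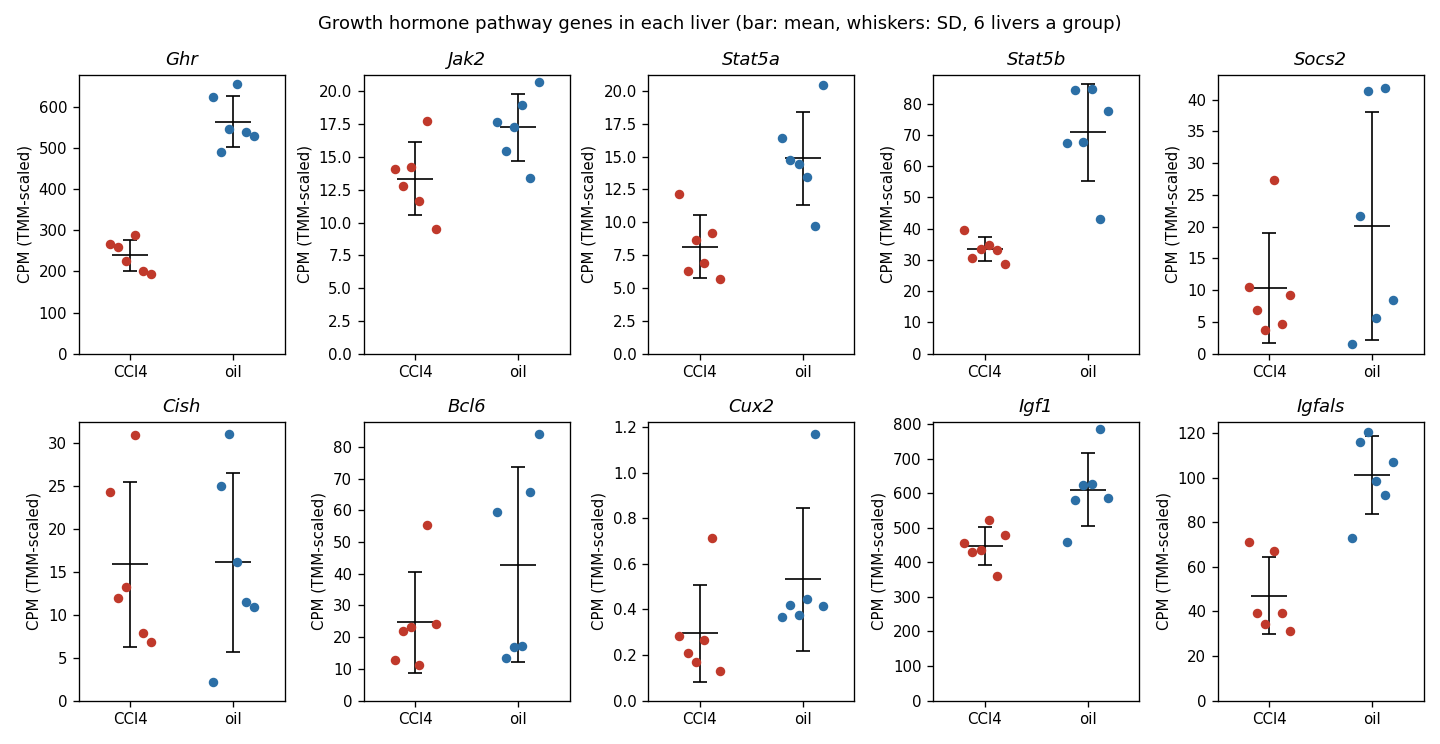
CPM (TMM-scaled, linear axes starting at 0) of the 10 genes in each of 6 CCl4 and 6 oil livers; points are livers, bars are means and whiskers SD. The groups are apart for Ghr, Stat5b and Igfals, while Socs2, Cish and Bcl6 spread widely within both groups.

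Total counts per library ran from 43027778 to 70375852. The libraries differed in how strongly counts rose with transcript length. The slope of log2 CPM on log2 length ran from -0.32 to 0.22 in CCl4 livers and from -0.10 to 0.30 in oil livers. A slope-adjusted fit, which holds this slope as a further term, is therefore quoted for each member. Genes picked by p-value or likeness to a member have it quoted where it ended the call or moved the fold by about 1.5 times. For the remaining named genes, Onecut1, Nr3c1, Egfr and Cyp17a1 among them, its values are not given and were not compared. Oil replicate 5 had the smallest total and the lowest slope of the oil group. The split of calls depended on the scaling: 52.8% of called genes were higher with TMM and 67.3% with upper-quartile scaling, which put the all-gene median log2 fold change at 0.13. Of 13 tested hepatocyte markers 4 were called lower and 2 higher. Their summed level was 118289 to 171331 CPM in CCl4 livers and 118612 to 163693 CPM in oil livers. Alb was the largest part of that sum, with a mean of 77063 CPM in CCl4 livers and 78023 CPM in oil livers. Of 14 macrophage markers 11 were called higher, with a summed level of 644 to 990 CPM in CCl4 livers and 273 to 372 CPM in oil livers; none was at 0.

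Ghr encodes the growth hormone receptor (gene ID 14600; chromosome 15, 3317755 to 3583352, minus strand, GRCm38). Its level was 194 to 288 CPM in CCl4 livers, with a median of 242, and 490 to 655 CPM in oil livers, with a median of 542. The highest CCl4 liver was thus far below the lowest oil liver. The means were 239 ± 38.5 CPM in CCl4 livers and 564 ± 62.2 CPM in oil livers (SD, n = 6 each), a log2 fold change of -1.24 ± 0.13 SE (adjusted p = 7.51e-06). In the slope-adjusted fit it was -1.23, and leaving out single libraries gave -1.30 to -1.18. Ghr was among the steadier genes of its level within groups. Its within-group SD of 0.20 log2 units was below the median of 0.29 among 248 genes whose mean log2 CPM was within 0.5 of its own.

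Jak2, the kinase bound to the receptor (gene ID 16452; chromosome 19, 29251803 to 29313095), was at 9.54 to 17.8 CPM in CCl4 livers and 13.4 to 20.7 CPM in oil livers, with medians of 13.5 CPM in CCl4 livers and 17.5 CPM in oil livers. The groups overlapped, and 3 of the 6 CCl4 livers lay below the lowest oil liver. Jak2 had a log2 fold change of -0.37 ± 0.16 SE, with a 95% interval of -0.71 to -0.04 that takes no account of multiple testing, and the adjusted p was 0.0725. That non-call turned on 2 libraries: the adjusted p was 0.0161 without CCl4 replicate 5 and 0.0315 without oil replicate 5. It also depended on the tool, at 0.0328 with DESeq2 and 0.0084 with limma-voom. In the slope-adjusted fit Jak2 was at -0.13 (adjusted p = 0.298).

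Stat5b and Stat5a encode close relatives that carry most growth hormone output in hepatocytes, with STAT5B the more abundant form in liver. The genes are neighbours on chromosome 11, Stat5b at 100780731 to 100859004 on the minus strand and Stat5a at 100859351 to 100885169 on the plus strand. Stat5b (gene ID 20851) was at 28.6 to 39.7 CPM in CCl4 livers, with a median of 33.3, and 43.1 to 84.7 CPM in oil livers, with a median of 72.6. The groups did not overlap; the low oil value was that of replicate 5. The log2 fold change was -1.08 ± 0.16 SE (adjusted p = 9.87e-05), and -0.91 in the slope-adjusted fit. Stat5a (gene ID 20850) was at 5.69 to 12.2 CPM in CCl4 livers, with a median of 7.78, and 9.75 to 20.5 CPM in oil livers, with a median of 14.6. Only CCl4 replicate 1 reached into the range of the oil livers. For Stat5a the log2 fold change was -0.87 ± 0.21 SE (adjusted p = 0.00459), and -0.51 in the slope-adjusted fit, which kept it past the threshold (adjusted p = 0.00239) at a smaller size. Of the 3909 windows of 50 bases in the longest Stat5a transcript, 10.8% occur unchanged in Stat5b, so a share of reads could be counted for either gene. Stat5a also shares 72 exon bases with Stat3 on the opposite strand, and the use of strand in counting is not given in the sources used here. The log2 difference between Stat5b and Stat5a within a liver was 2.07 ± 0.27 in CCl4 livers and 2.25 ± 0.28 in oil livers (SD, n = 6 each). That change of -0.18 was within the spread of livers (exact two-sided permutation p = 0.294).

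**Figure D2:**
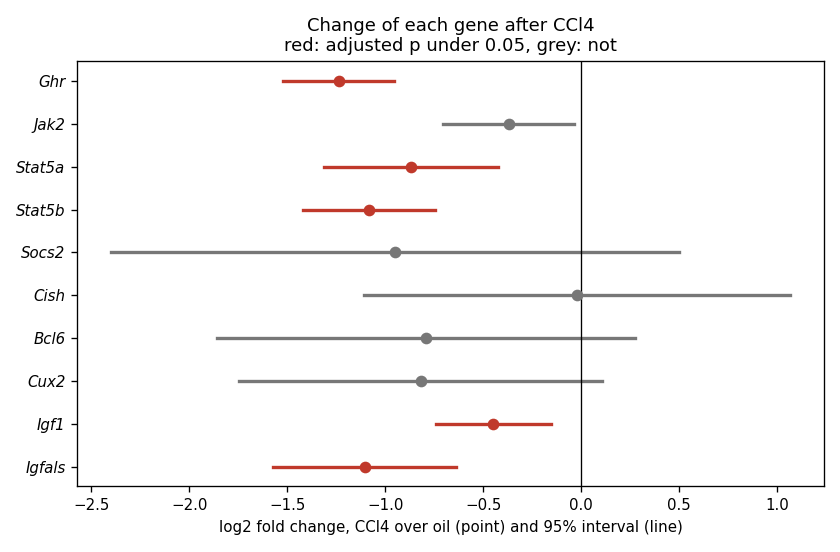
Log2 fold change of each gene, CCl4 over oil (points), with its 95% interval from the edgeR fit (lines; red where the adjusted p was under 0.05, grey otherwise). Ghr, Stat5b and Igfals lie near -1.1 to -1.2, with intervals of -1.52 to -0.96, -1.42 to -0.75 and -1.57 to -0.64. The intervals of Socs2, Cish and Bcl6 span more than 2 log2 units.

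Socs2 and Cish, the feedback inhibitors, were called in neither direction, and livers of the same group differed widely. Socs2 encodes a suppressor of cytokine signalling that restrains the receptor (gene ID 216233; chromosome 10, 95383903 to 95417321). Its level was 3.70 to 27.3 CPM in CCl4 livers, with a median of 8.05, and 1.59 to 41.9 CPM in oil livers, with a median of 15.1. The CCl4 range lay inside the oil range. Socs2 had a log2 fold change of -0.95 with a 95% interval of -2.40 to 0.50 (adjusted p = 0.276). The value moved with the processing, to -0.091 with limma-voom and -1.45 in the slope-adjusted fit. It moved with single libraries too, to -1.52 without CCl4 replicate 4, -0.61 without oil replicate 3 and -0.60 without oil replicate 5, and passed in none of these fits. Cish, which encodes the related inhibitor CIS (gene ID 12700; chromosome 9, 107296659 to 107302784), was at 6.83 to 31.0 CPM in CCl4 livers, with a median of 12.6, and 2.12 to 31.1 CPM in oil livers, with a median of 13.8. The highest livers of both groups were level. For Cish the log2 fold change was -0.023 with a 95% interval of -1.11 to 1.06 (adjusted p = 0.974), so a change of about 2-fold either way was within the interval. Its sign turned under several settings, 0.094 with upper-quartile scaling and 0.026 in the slope-adjusted fit among them. Exons of Cish overlap the antisense gene Gm17041 by 479 bases and the pseudogene Gm17040 by 261, both on the opposite strand.

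Bcl6 (gene ID 12053; chromosome 16, 23965050 to 23988866) varied in the same way. It was at 11.2 to 55.2 CPM in CCl4 livers, with a median of 22.6, and 13.6 to 84.2 CPM in oil livers, with a median of 38.3. The oil livers fell into 3 at 13.6 to 17.2 CPM and 3 at 59.4 to 84.2 CPM. Bcl6 had a log2 fold change of -0.79 with a 95% interval of -1.86 to 0.27 (adjusted p = 0.218), and -0.61 in the slope-adjusted fit. Without CCl4 replicate 5 it was -1.21 (adjusted p = 0.0503), and without oil replicate 6 it was -0.49 (adjusted p = 0.466). Lymphocytes also express Bcl6. Of 10 tested B and T cell markers 5 were called higher and 1 lower, with a summed level of 10.5 to 13.8 CPM in CCl4 livers and 7.80 to 10.01 CPM in oil livers; Ighm and Trac were not tested, and the part of these cells in the Bcl6 level was not tested.

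These 3 genes were among the most variable of their level. The within-group SD of log2 CPM was 1.49 for Socs2, at percentile 99.9 of 2142 genes of like level whose median SD was 0.32. For Cish it was 1.14, at percentile 99.8 of 2381 genes. For Bcl6 it was 1.02, at percentile 99.5 of 2361 genes. Jak2, Ghr and Igf1 lay at percentiles 37.5, 23.8 and 27.2, Stat5b at 51.8, Stat5a at 65.2, Cux2 at 70.0 and Igfals at 74.4.

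Liver by liver, the livers highest in Socs2 were in part those highest in Cish. CCl4 replicate 4 had the highest Socs2 and Cish of its group (27.3 and 31.0 CPM) and the lowest Bcl6 (11.2 CPM). Oil replicate 1 had the lowest Socs2 and Cish of its group (1.59 and 2.12 CPM), with Bcl6 at 59.4 CPM. Other livers went against this order. Oil replicate 5 had Socs2 at 41.9 CPM, Cish at 11.5 CPM and Bcl6 at 65.9 CPM, and oil replicate 4 had Socs2 at 5.59 CPM and Cish at 16.1 CPM. CCl4 replicate 6 had Socs2 at 9.28 CPM with the lowest Cish of its group (6.83 CPM), and CCl4 replicate 3 the lowest Socs2 (3.70 CPM) with Cish at 13.3 CPM. Pearson's r between log2 CPM of Socs2 and Cish was 0.66 in CCl4 livers (exact permutation p = 0.167; Spearman's rho 0.49, exact permutation p = 0.356) and 0.80 in oil livers (exact permutation p = 0.0778; rho 0.54, exact permutation p = 0.297). Between Socs2 and Bcl6 it was -0.74 in CCl4 livers (exact permutation p = 0.0722; rho -0.71, exact permutation p = 0.136) and -0.28 in oil livers (exact permutation p = 0.606; rho -0.09, exact permutation p = 0.919). These are 4 of 10 relations computed, each over 6 livers, and none passed after adjustment over the 10 (smallest adjusted p of 0.194 for r and 0.681 for rho, exact permutation). Without the 2 livers farthest from the median of Socs2, r between Socs2 and Cish was 0.51 in CCl4 livers and 0.86 in oil livers, and between Socs2 and Bcl6 -0.91 in CCl4 livers and -0.42 in oil livers, each over 4 livers.

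**Figure D3:**
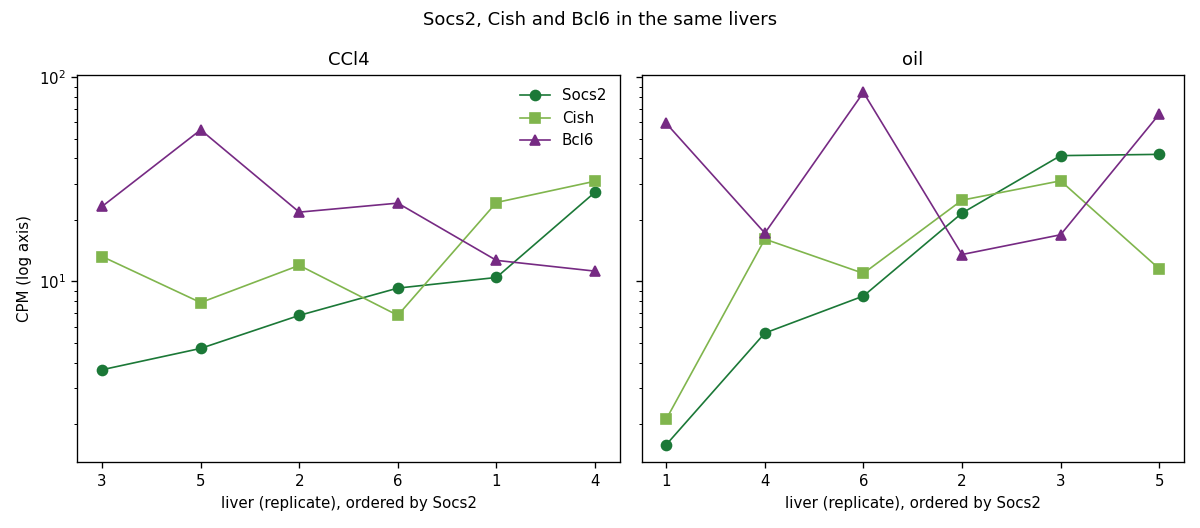
CPM (log axis) of Socs2, Cish and Bcl6 in the 6 CCl4 livers (left) and 6 oil livers (right), with livers ordered by Socs2 and lines joining values of 1 gene. Socs2 runs from 3.70 to 27.3 CPM in CCl4 livers and from 1.59 to 41.9 CPM in oil livers; Cish is highest at CCl4 replicate 4 and oil replicate 3, and Bcl6 is lowest at CCl4 replicate 4 and oil replicate 2.

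The sequences around the starts of these genes were read for TTCNNNGAA, the core element bound by STAT5, which reads the same on both strands. RefSeq promoters of GRCm38.p6, from 250 bases before to 50 after a start, were at hand for 9 of the 10 genes (16 starts; Socs2 had none). The element was found at 5 of the 16 starts, those of Cish, Bcl6 and Igfals, and at 8.3% of all 32851 promoters of that length. At the Cish start (chr9:107296409-107296708, plus strand) 2 copies begin 1 and 12 bases into the transcript; 0.457% of promoters hold at least 2. An inner start of Bcl6 (chr16:23981234-23981533, minus strand) holds 3 copies, beginning at -168, -122 and -88 from the start; 11 promoters in all hold at least 3. One of 2 Igfals starts with the element (chr17:24877981-24878280, plus strand) holds it at -58. These 3 are shown because their genes are outputs or competitors of STAT5 and differ in their data: Igfals was lower after CCl4, while Cish and Bcl6 spread more widely within groups. Capitals mark the element; a match is a description of letters, not a measured site.
Cish: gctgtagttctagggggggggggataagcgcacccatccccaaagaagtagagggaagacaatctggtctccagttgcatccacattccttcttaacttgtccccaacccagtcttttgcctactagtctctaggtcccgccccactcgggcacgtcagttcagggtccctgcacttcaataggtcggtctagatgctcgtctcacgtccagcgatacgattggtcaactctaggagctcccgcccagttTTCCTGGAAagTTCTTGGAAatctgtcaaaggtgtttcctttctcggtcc
Bcl6: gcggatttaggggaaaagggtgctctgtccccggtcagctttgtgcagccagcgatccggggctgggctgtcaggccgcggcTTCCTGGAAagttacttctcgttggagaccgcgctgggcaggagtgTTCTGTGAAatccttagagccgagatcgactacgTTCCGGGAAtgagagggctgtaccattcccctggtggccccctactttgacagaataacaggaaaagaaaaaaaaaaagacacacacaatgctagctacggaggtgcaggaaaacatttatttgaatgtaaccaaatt
Igfals: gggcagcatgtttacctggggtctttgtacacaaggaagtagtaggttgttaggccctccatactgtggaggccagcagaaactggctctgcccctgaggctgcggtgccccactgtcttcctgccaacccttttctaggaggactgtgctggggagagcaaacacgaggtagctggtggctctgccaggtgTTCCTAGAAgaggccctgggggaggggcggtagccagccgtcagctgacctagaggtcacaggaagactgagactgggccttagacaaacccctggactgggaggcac

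Cux2 (gene ID 13048; chromosome 5, 121857962 to 122050415) was near the lower limit of detection, with 7 to 54 reads per CCl4 library and 16 to 45 per oil library. It was at 0.128 to 0.716 CPM in CCl4 livers, with a median of 0.237, and 0.367 to 1.17 CPM in oil livers, with a median of 0.418. The highest liver of each group was replicate 5, and the other 5 CCl4 livers lay below all oil livers. Cux2 had a log2 fold change of -0.82 ± 0.43 SE (adjusted p = 0.145), and without CCl4 replicate 5 it was -1.33 (adjusted p = 0.0104). With limma-voom it was -0.83 (adjusted p = 0.0308), and in the slope-adjusted fit -0.75 (adjusted p = 0.188). Without oil replicate 5 it was -0.45 (adjusted p = 0.361). Cux2 was not higher in CCl4 livers under any of these fits.

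Igf1 and Igfals are the hormonal output of the pathway. Igf1 encodes insulin-like growth factor 1, most of which in blood comes from hepatocytes (gene ID 16000; chromosome 10, 87858265 to 87937047). Its level was 359 to 524 CPM in CCl4 livers, with a median of 446, and 460 to 786 CPM in oil livers, with a median of 606. Of the CCl4 livers 4 lay below the lowest oil liver, and all 6 below the oil median. The means were 447 ± 55.0 CPM in CCl4 livers and 611 ± 105 CPM in oil livers (SD, n = 6 each), a log2 fold change of -0.45 ± 0.14 SE (adjusted p = 0.0186). The call was lost with upper-quartile scaling (log2 fold change -0.33, adjusted p = 0.0638), and held when any single library was left out (-0.55 to -0.37). In the slope-adjusted fit it was -0.59 (adjusted p = 0.00102). Macrophages also express Igf1, and the part of the macrophage transcripts given above in the Igf1 level was not tested.

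Igfals encodes the acid-labile subunit, a hepatocyte protein that holds IGF1 and its binding protein IGFBP3 in a long-lived complex in blood (gene ID 16005; chromosome 17, 24877844 to 24882011). It was at 31.3 to 71.1 CPM in CCl4 livers, with a median of 39.4, and 72.8 to 121 CPM in oil livers, with a median of 103. The groups did not overlap, but by a narrow gap, between CCl4 replicate 1 and oil replicate 1. The log2 fold change was -1.11 ± 0.22 SE (adjusted p = 0.00117), and -0.997 in the slope-adjusted fit.

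Igf1 changed less than the receptor above it or the carrier beside it. The log2 difference of Igf1 over Ghr within a liver was 0.91 ± 0.21 in CCl4 livers and 0.11 ± 0.33 in oil livers (SD, n = 6 each), a change of 0.81. Values ran from 0.72 to 1.31 in CCl4 livers and from -0.44 to 0.54 in oil livers, without overlap (exact two-sided permutation p = 0.00216, the smallest that 6 against 6 livers can give; 0.00866 after adjustment over 4 such differences). Igfals over Igf1 was at -3.31 ± 0.46 in CCl4 livers and -2.59 ± 0.28 in oil livers, a change of -0.72 (exact two-sided permutation p = 0.0108, adjusted 0.0216). Its ranges overlapped, from -3.94 to -2.68 in CCl4 livers and from -3.09 to -2.32 in oil livers. Cish over Socs2 was at 0.72 ± 0.79 in CCl4 livers and 0.04 ± 1.12 in oil livers, a change of 0.68 within the spread (exact two-sided permutation p = 0.251). Such differences within a library do not depend on its scaling. They can depend on its length slope where the genes differ in length, and no slope-adjusted difference was tested. In the slope-adjusted fit the log2 fold changes were -0.59 for Igf1, -0.997 for Igfals and -1.23 for Ghr. Pearson's r of Igf1 with Ghr was 0.51 in CCl4 livers (exact permutation p = 0.325; rho 0.37, p = 0.497) and -0.29 in oil livers (exact permutation p = 0.592; rho 0.20, p = 0.714). Without the 2 livers farthest from the median of Ghr it was 0.73 in CCl4 livers and 0.53 in oil livers, over 4 livers each. Igf1 with Socs2 gave 0.79 in CCl4 livers (exact permutation p = 0.0583; rho 0.77, p = 0.103) and 0.80 in oil livers (exact permutation p = 0.0722; rho 0.60, p = 0.242), neither past adjustment. Without the 2 livers farthest from the median of Socs2 these were 0.94 in CCl4 livers and -0.00026 in oil livers, so that in oil livers the relation rested on those livers. Igf1 with Igfals gave 0.39 in CCl4 livers (exact permutation p = 0.458; rho 0.09, p = 0.919) and 0.40 in oil livers (exact permutation p = 0.419; rho 0.03, p = 1), and without the 2 livers farthest from the median of Igf1, -0.07 in CCl4 livers and -0.22 in oil livers.

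**Figure D4:**
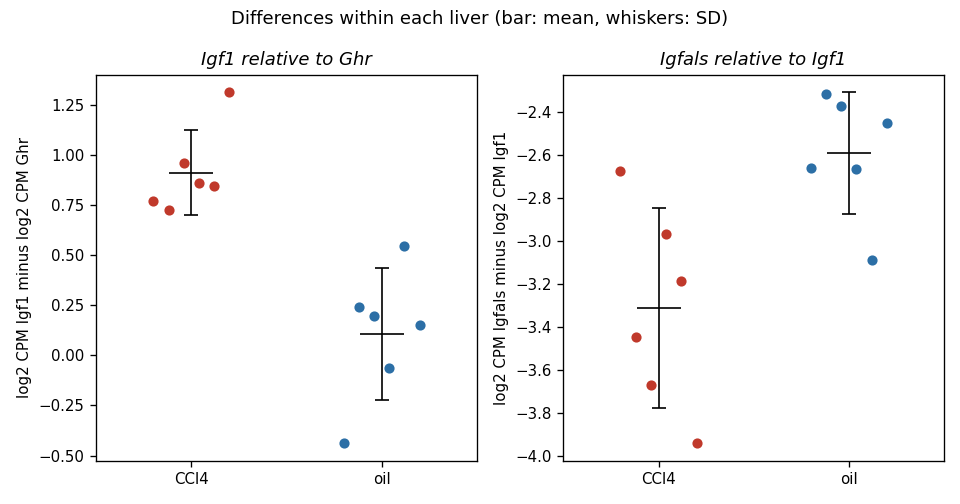
Difference of log2 CPM within each liver, Igf1 minus Ghr (left) and Igfals minus Igf1 (right), in 6 CCl4 and 6 oil livers; points are livers, bars means and whiskers SD. Igf1 relative to Ghr lies at 0.72 to 1.31 in CCl4 livers and -0.44 to 0.54 in oil livers, and Igfals relative to Igf1 is lower on average in CCl4 livers with overlapping ranges.

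Per length of the longest GENCODE M21 transcript, the levels fell into steps. Counts were per gene, so which transcript was expressed is not known, and the order can depend on the length used. In CCl4 livers Igf1 stood at 63.4 ± 7.81 and Ghr at 57.2 ± 9.22 CPM per kb (SD, n = 6 each), which did not differ beyond their spread. In oil livers Ghr stood at 135 ± 14.9 and Igf1 at 86.6 ± 14.9 CPM per kb. Igfals followed at 17.9 ± 6.61 in CCl4 livers and 38.6 ± 6.68 CPM per kb in oil livers. Stat5b (6.41 ± 0.728 and 13.6 ± 2.99 CPM per kb in CCl4 and oil livers) and Bcl6 (6.29 ± 4.05 and 10.9 ± 7.79) came next and overlapped in both groups. Jak2, Stat5a, Socs2 and Cish lay between 2.06 and 3.38 CPM per kb in CCl4 livers and between 3.43 and 4.73 in oil livers, without an order beyond their spread. Cux2 was last, at 0.0336 ± 0.0244 in CCl4 livers and 0.0606 ± 0.0358 CPM per kb in oil livers.

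By deviation from the group means over the 12 livers, the genes most like Ghr among 10921 were Car3 (Pearson's r 0.88), Aldh8a1 (0.84) and Aldh1a1 (0.83). Car3, a carbonic anhydrase, was at 265 ± 159 CPM in CCl4 livers and 2972 ± 1261 CPM in oil livers (SD, n = 6 each; adjusted p = 6.01e-05). Those most like Socs2 were Mindy1 (0.95), Prcc (0.94) and Akt1s1 (0.93), and those most like Igf1 were Nlrp12 (0.90), Sra1 (0.89) and Csrp3 (0.88). Mindy1 was at 96.8 ± 6.22 CPM in CCl4 livers and 125 ± 9.77 CPM in oil livers. Nlrp12 was at 27.6 ± 7.33 CPM in CCl4 livers and 68.0 ± 27.5 CPM in oil livers. These genes were picked as the highest r of many, the 12 livers share 1 kind of library and differ in depth, and no test goes with the values.

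Among 12 transducers that act with or beside the pathway, 3 were lower and 2 higher, with a median log2 fold change of -0.15. For this list and those below, the shares among all tested genes were 18.4% lower and 20.6% higher. Irs2, an insulin receptor substrate that growth hormone also engages, was at 0.311 to 4.28 CPM in CCl4 livers and 10.8 to 75.6 CPM in oil livers, with no overlap. It was 16.7-fold lower (log2 fold change -4.06, adjusted p = 0.000177); in the slope-adjusted fit the log2 fold change was -3.23 (adjusted p = 0.00118). Sh2b1, an adaptor that binds JAK2, was 1.61-fold lower (29.0 ± 8.63 CPM in CCl4 livers and 46.6 ± 3.98 CPM in oil livers). Src, a kinase that also signals from the receptor, was higher, at 6.42 ± 2.86 CPM in CCl4 livers and 2.22 ± 0.532 CPM in oil livers (adjusted p = 0.000503). The count of higher genes was 1 with DESeq2 size factors, without the low-count filter, and when any library but CCl4 replicate 4 or 5 or oil replicate 5 was left out. Jak1, Stat3 and Grb2 were among the 7 that did not pass; Stat3 was at 136 ± 38.1 CPM in CCl4 livers and 169 ± 49.6 CPM in oil livers.

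Among 14 genes that restrain the pathway 3 were higher and 2 lower, with a median of 0.07. Sirpa, a phosphatase-recruiting receptor that macrophages express strongly, was 3.91-fold higher (67.9 ± 5.12 CPM in CCl4 livers and 17.4 ± 1.82 CPM in oil livers, adjusted p = 4.82e-08). Grb10, an adaptor that limits insulin and IGF receptors, was 2.27-fold higher (10.5 ± 1.16 CPM in CCl4 livers and 4.62 ± 0.866 CPM in oil livers, adjusted p = 3.00e-05). Socs7 was lower (7.61 ± 2.85 CPM in CCl4 livers and 12.4 ± 2.53 CPM in oil livers, log2 fold change -0.71, adjusted p = 0.0288), and at -0.32 in the slope-adjusted fit (adjusted p = 0.0329). The count of lower genes was 0 without CCl4 replicate 2, 4 or 6, without oil replicate 3 or 6 and with upper-quartile scaling, and 1 without oil replicate 1 or 4. Socs3, the inhibitor induced by interleukin 6, was at 20.9 ± 8.07 CPM in CCl4 livers and 14.4 ± 6.52 CPM in oil livers (adjusted p = 0.186). Socs1 was at 0.428 ± 0.244 CPM in CCl4 livers and 0.381 ± 0.280 CPM in oil livers (adjusted p = 0.754). The macrophage marker Cd68 was at 51.9 ± 6.21 CPM in CCl4 livers and 9.67 ± 1.63 CPM in oil livers, and its part in the Sirpa level was not tested.

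Of 14 transcription factors and coregulators that work with STAT5 on hepatocyte genes, 9 were lower and none higher, with a median of -0.62. Hnf4a, a central hepatocyte nuclear receptor, was at 328 ± 90.7 CPM in CCl4 livers and 681 ± 130 CPM in oil livers (2.08-fold lower, adjusted p = 0.000681). Foxa1, a pioneer factor, was at 8.92 ± 2.12 CPM in CCl4 livers and 16.8 ± 3.34 CPM in oil livers (adjusted p = 0.00104). Onecut1, known as HNF6 and itself raised by growth hormone in rat liver, was at 2.06 ± 1.35 CPM in CCl4 livers and 6.46 ± 5.42 CPM in oil livers (adjusted p = 0.025). Nr3c1, the glucocorticoid receptor and a partner of STAT5, was at 53.9 ± 6.90 CPM in CCl4 livers and 71.9 ± 8.06 CPM in oil livers (adjusted p = 0.014). The count of lower genes was 4 without CCl4 replicate 2, 5 without CCl4 replicate 3 or 6, 4 without oil replicate 3, 5 without oil replicate 4 and 4 with upper-quartile scaling.

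A list of other receptors, some of which use JAK2 or relate to Ghr, gave 3 higher and 2 lower calls among 9 tested. The 2 lower ones were the insulin and EGF receptors, which are not of the Ghr family. Prlr, the prolactin receptor and the nearest relative of Ghr in the list, was at 115 ± 20.7 CPM in CCl4 livers and 129 ± 37.0 CPM in oil livers (adjusted p = 0.528). Ifngr1 and Ifngr2, the interferon gamma receptor chains, were 1.78-fold and 1.89-fold higher (adjusted p = 4.07e-05 and 0.0139). The log2 fold change of Ifngr2 was 0.92, and 0.33 in the slope-adjusted fit (adjusted p = 0.0041). Insr, the insulin receptor, was 1.84-fold lower (65.6 ± 18.9 CPM in CCl4 livers and 120 ± 19.9 CPM in oil livers, adjusted p = 0.00207), and Egfr 2.23-fold lower.

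Among 12 tested genes of the IGF system other than Igf1 and Igfals, 2 were higher and 2 lower, with a median of 0.06. Igfbp3, the third part of the circulating complex, was at 17.3 ± 2.92 CPM in CCl4 livers and 15.4 ± 2.59 CPM in oil livers (adjusted p = 0.404). Igfbp7, also made by stromal cells, was 1.91-fold higher (106 ± 14.8 CPM in CCl4 livers and 55.8 ± 3.93 CPM in oil livers). Of 12 stellate cell and fibroblast markers 11 were called higher, with a summed level of 865 to 1164 CPM in CCl4 livers and 245 to 403 CPM in oil livers, and their part in the Igfbp7 level was not tested. Igfbp1, which insulin holds down, was at 281 ± 210 CPM in CCl4 livers and 804 ± 352 CPM in oil livers (log2 fold change -1.52, adjusted p = 0.0247). The call was lost at a similar size without CCl4 replicate 2 or 3 (-1.43 and -1.38), without oil replicate 4 or 6 (-1.40 and -1.37) and in the slope-adjusted fit (-1.79). The count of lower genes was 0 when any 1 of those 4 libraries was dropped and 1 when CCl4 replicate 6 or oil replicate 2 or 3 was, and the count of higher genes was 4 without any one of the oil libraries. Stc2, an inhibitor of IGFBP-cleaving proteases, was higher at a very low level (0.361 ± 0.109 CPM in CCl4 livers and 0.113 ± 0.0666 CPM in oil livers). Igf1r, the IGF1 receptor, was at 2.17 ± 0.956 CPM in CCl4 livers and 2.18 ± 0.431 CPM in oil livers (adjusted p = 0.989).

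Genes with sex-biased expression in mouse liver included the largest changes among these lists, and growth hormone release was not measured. Of 17 tested male-biased genes 16 were lower, with a median of -2.43. Cyp7b1 and Susd4, named by the smallest p, were 14.9-fold and 79.2-fold lower. Cyp7b1, an oxysterol hydroxylase, was at 25.8 ± 13.6 CPM in CCl4 livers and 385 ± 127 CPM in oil livers. Susd4 was at 0.551 ± 0.192 CPM in CCl4 livers and 43.8 ± 11.5 CPM in oil livers. Of 11 tested female-biased genes 3 were higher and 1 lower, with a median of -0.33; 7 more did not pass the filter on low counts. Cyp2a4 was at 26.9 ± 18.6 CPM in CCl4 livers and 0.422 ± 0.195 CPM in oil livers; the other two were Cyp17a1 and Prom1. Prom1, also known from bile duct and progenitor cells, was at 14.3 ± 6.37 CPM in CCl4 livers and 0.685 ± 0.205 CPM in oil livers. Of 7 tested bile duct markers 3 were called higher, with a summed level of 158 to 214 CPM in CCl4 livers and 50.5 to 83.1 CPM in oil livers, and their part in the Prom1 level was not tested. Cyp4a10, a fatty acid hydroxylase, was the lower one, at 114 ± 26.5 CPM in CCl4 livers and 352 ± 120 CPM in oil livers (3.09-fold lower, adjusted p = 0.000101), with no overlap. A1bg, strongly female-biased in mouse liver, was at 0.297 ± 0.155 CPM in CCl4 livers and 0.384 ± 0.558 CPM in oil livers (adjusted p = 0.734). The count of lower female-biased genes was 2 without CCl4 replicate 5 or oil replicate 1 and 3 without oil replicate 6.

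**Figure D5:**
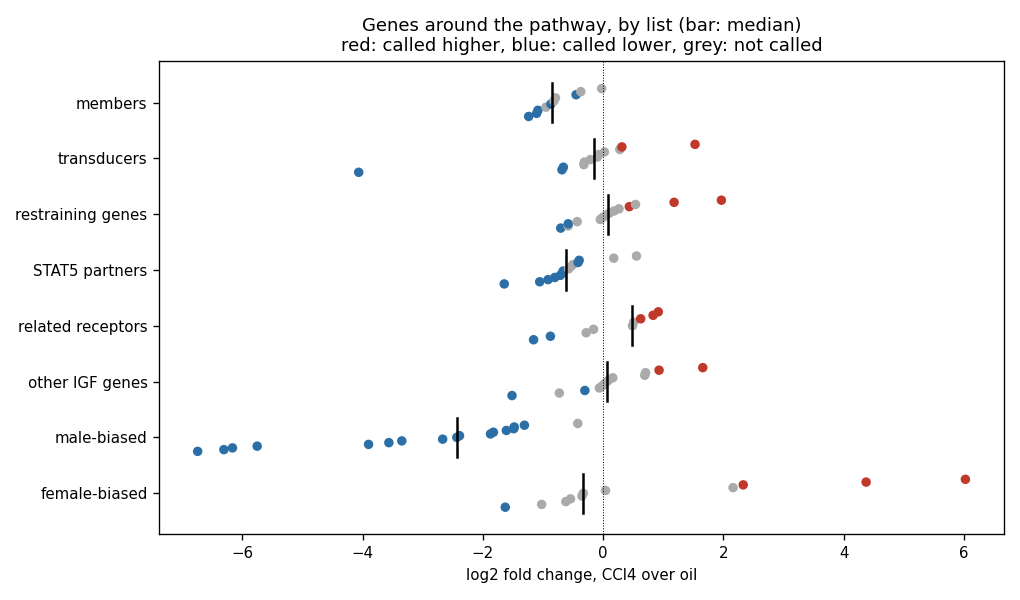
Log2 fold change, CCl4 over oil, of each tested gene (points) in the 10 members and 7 related lists; bars are medians, red points were called higher, blue lower and grey neither. The medians of the members (-0.84), STAT5 partners (-0.62) and male-biased genes (-2.43) lie left of 0, and those of the restraining and other IGF genes (0.07 and 0.06) near 0.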

How the data were processed

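Gene-level RNA-seq was measured in whole liver of 6 CCl4-treated and 6 oil-treated mice. RNA came off RNeasy columns and, per the labels' protocols, the TruSeq Stranded Total RNA kit made the libraries. What the authors deposited were raw read counts per gene, without normalisation; the 12 columns of the series table equalled the 12 sample files. Per the submitters' processing notes the build was GRCm38; aligner, counter, annotation and use of strand were not given in the sources used here. IDs took names from RefSeq for GRCm38.p6 (31049 of 36528) and GENCODE M21 (78); the 5401 IDs left unnamed held 2.19% of counts. No replicate pair agreed within sampling noise: the lowest chi-square per gene was 53.4.

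The 16032 genes left by filterByExpr went into 1 fit with TMM scaling: edgeR 4.0.16 under R 4.3.3, glmQLFit with robust estimation, then its quasi-likelihood test. P-values were adjusted over all of them (Benjamini-Hochberg, threshold 0.05), and the members were read from that fit. SE is the log2 fold change divided by the square root of F, and 95% intervals use the fit's degrees of freedom. Log2 CPM used a prior count of 2. Differences within livers and correlations were tested by exact permutation (SciPy 1.17.1). The scripts were tested on simulated counts. Members, lists, tests and alternatives were chosen with earlier results of these data known. Named genes were all members; in each list the called gene with the smallest p in each direction and the next in the majority direction; the 3 genes with the highest within-group r to Ghr, Socs2 and Igf1; and genes whose role a sentence needed. Cell type lists are given by counts and levels, and only beside a result, and 1 listed gene is not reported here.

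Alternatives were DESeq2 1.42.0 size factors, upper-quartile scaling, DESeq2, limma-voom (limma 3.58.1) with quality weights, no filter, at least 50 counts in 6 libraries, the length slope as a covariate (13882 of 16032 genes had a length, 86.6%), testing against 1.5-fold, and dropping each library in turn.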

Additional observations from a re-analysis of the deposited data

Results flagged for a closer look

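A liver was marked where its gap to the nearest liver of its group took up more of the group's range than Dixon's 95% critical value for 6 samples. This was applied to 44 genes in 88 groups of 6 livers, where chance marks about 1 group in 20, and 8 livers were marked. Of the members, Socs2 stood at 27.3 CPM in CCl4 replicate 4, against 3.70 to 10.5 CPM in the other 5 CCl4 livers. Bcl6 stood at 55.2 CPM in CCl4 replicate 5, against 11.2 to 24.2 CPM in the others. Cux2 stood at 0.716 CPM in CCl4 replicate 5, against 0.128 to 0.284 CPM in the others, and at 1.17 CPM in oil replicate 5, against 0.367 to 0.445 CPM. Among other named genes, Cyp7b1 was high in CCl4 replicate 1 (52.3 CPM, others 15.0 to 25.6 CPM) and Ifngr2 in oil replicate 5 (33.1 CPM, others 15.6 to 20.96 CPM). The hepatocyte marker Ahsg was low in oil replicate 1 (7392 CPM, others 8910 to 9635 CPM), and Spp1, a bile duct and macrophage gene, was low in oil replicate 3 (19.8 CPM, others 28.7 to 33.4 CPM).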

How the results depend on the processing

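Ghr, Stat5b and Igfals were called lower in all 21 fits over all genes, Stat5a in 20 and Igf1 in 19; Socs2, Cish and Bcl6 were called in none. Against a 1.5-fold change Stat5a (-0.87, adjusted p = 0.149) and Igf1 (-0.45) did not pass, and 1616 genes were called higher and 765 lower, which is expected of a stricter test by its construction. Igf1 was at -0.33 with upper-quartile scaling. Jak2 passed with DESeq2 (-0.40) and limma-voom (-0.43), and ran from -0.50 to -0.29 when single libraries were left out. Cux2 passed with limma-voom (-0.83), ran from -1.33 to -0.45 without single libraries and did not reach 50 counts in 6 libraries. Cish was positive with upper-quartile scaling (0.094), limma-voom (0.39) and the length slope (0.026), and ran from -0.33 to 0.27 without single libraries. Without single libraries Socs2 ran from -1.52 to -0.60 and Bcl6 from -1.21 to -0.49. The causes were not tested. The correlations kept their direction and side of the threshold with a prior count of 0.25 and with DESeq2 size factors. So did the within-liver differences, but scaling nearly cancels within a liver, so for them the size factors are no check. The differences also kept both without any single library (Igf1 over Ghr 0.70 to 0.89, Igfals over Igf1 -0.85 to -0.59). Of 600 recomputed counts of called list members, 85 moved by over 1.5 times. No paired analysis was possible because the labels give the groups no shared replicate numbers. Depth limits Cux2 most.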
